A study of Mus musculus with 12 samples.

Results

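The neurotrophin ligand genes Bdnf and Ntf3 and the receptor genes Ntrk2, Ntrk3, Ngfr and Sort1 were examined by RNA sequencing in auditory cortex of acute brain slices. The 6 genes were taken by name from the 20590 gene names in the libraries, and each matched 1 locus of 20989. Coronal slices of 350 µm were cut from 4-week-old mice of the strain that the labels call C57bl6/J, the tissue being labelled acute brain slice, and were divided along the midline. After 15 min of recovery in choline chloride buffer and 45 min in aCSF, 1 hemisphere of each of the 6 mice stayed in control aCSF for 1 h. The other was held for 1 h in cocktail aCSF with 50 µM bicuculline methiodide, 100 µM norepinephrine, 50 µM carbamoylcholine, 100 µM dopamine, 40 µM ascorbic acid and 100 µM serotonin. According to the methods of the study, but not the labels, both hemispheres then rested in aCSF for a further 1 h, so that the RNA was taken after this rest and not at the end of the exposure. All components were given together, so an effect of 1 of them cannot be told apart from that of the others, and each library is a mixture of all cells of the dissected cortex. Values are FPKM, the number of sequenced fragments scaled to transcript length and to all fragments on protein coding genes, so levels of different genes can be set side by side.

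Neurotrophins are secreted growth factors that are made as proneurotrophins and cut to the mature form inside or outside the cell. Mature BDNF binds the tyrosine kinase receptor TrkB (Ntrk2) and NT-3 binds TrkC (Ntrk3), while the proforms bind the p75 receptor (Ngfr) together with sortilin (Sort1). In cortex, BDNF is made mainly by excitatory neurons, its gene responds to neuronal activity through several alternative promoters, and it is known for its part in synaptic plasticity. TrkB exists as a full-length kinase and as a truncated form that is abundant in astrocytes, which a value for the whole locus does not separate.

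Bdnf lies on chromosome 2 of mm10 (109674700 to 109727043, plus strand), and its value sums 11 RefSeq transcripts in 9 start site groups. An antisense gene of GENCODE M21, Gm45346, shares 896 exonic bases with it, and since the strand setting of the FPKM step is not given in the sources used here, reads of the pair cannot be told apart there. RefSeq promoter windows of GRCm38.p6, from 250 bases before to 50 bases after a start, were matched for Bdnf (7 windows), Ntf3 (2), Ntrk2 (1) and Ngfr (1). Ntrk3 and Sort1 were not matched. The windows were searched on both strands for the cAMP response element TGACGTCA and for its shorter form TGACG, which the full element contains. They were also searched for the E-box CACGTG and for TCGTG, a core that the activity-dependent factor NPAS4 is known to bind. Of the 7 Bdnf windows, 0 held the full element, 1 held the shorter form, 0 held the E-box and 3 held TCGTG, where 1.79%, 20.8%, 7.15% and 16% of all 32851 windows held them. The 3 windows with a match are shown because they lie in front of a gene that changed and hold letters of elements known from activity-dependent genes. Capitals mark the matches on either strand, and the sequence is printed 5′ to 3′ on the plus strand.

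Bdnf, window 1, chr2:109674450-109674749: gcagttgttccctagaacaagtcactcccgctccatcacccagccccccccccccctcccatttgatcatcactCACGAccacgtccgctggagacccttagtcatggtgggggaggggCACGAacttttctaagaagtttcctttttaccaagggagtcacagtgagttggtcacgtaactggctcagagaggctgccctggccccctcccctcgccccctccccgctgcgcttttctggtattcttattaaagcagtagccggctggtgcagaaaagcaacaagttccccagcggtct
Bdnf, window 2, chr2:109676782-109677081: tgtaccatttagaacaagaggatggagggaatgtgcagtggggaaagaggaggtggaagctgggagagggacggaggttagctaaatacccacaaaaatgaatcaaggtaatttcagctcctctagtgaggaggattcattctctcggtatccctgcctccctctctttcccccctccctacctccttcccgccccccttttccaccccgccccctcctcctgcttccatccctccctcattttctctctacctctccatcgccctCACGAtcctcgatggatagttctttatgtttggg
Bdnf, window 3, chr2:109692186-109692485: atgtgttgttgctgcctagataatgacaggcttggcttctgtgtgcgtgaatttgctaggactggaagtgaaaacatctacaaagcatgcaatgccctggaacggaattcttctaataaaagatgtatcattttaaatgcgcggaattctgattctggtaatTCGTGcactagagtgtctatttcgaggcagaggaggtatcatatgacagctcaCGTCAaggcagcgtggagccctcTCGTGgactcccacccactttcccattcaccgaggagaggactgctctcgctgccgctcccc

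In window 3, the shorter form begins 35 bases before the start, on the minus strand, and TCGTG occurs on either side of it. A match of letters is a description, and FPKM of the whole locus does not say which start was used.

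Bdnf was higher in the cocktail hemispheres, and none of the receptor genes passed a test. Bdnf in the control hemispheres of mice 1 to 6 was 14.0, 17.2, 16.8, 10.2, 12.5 and 10.6 FPKM. In the cocktail hemispheres of the same mice it was 21.3, 22.4, 20.6, 16.1, 12.8 and 13.03 FPKM. Every mouse had the higher value in the cocktail hemisphere, but the groups overlapped, with 3 cocktail libraries above all control libraries. In mouse 5 the 2 values lay within each other's Cufflinks interval (± 0.94 FPKM in control and ± 0.88 FPKM in the cocktail). Of all loci with a mean of at least 1 FPKM, 3.64% were higher in the cocktail in all 6 mice. The ratio of cocktail to control was lowest in mouse 5, at 1.02, and highest in mouse 4, at 1.58. Mean levels were 13.6 ± 3.00 FPKM without and 17.7 ± 4.31 FPKM with the cocktail (SD, 6 hemispheres per group), a ratio of 1.31.

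On the log2(FPKM + 1) scale, the limma estimate for Bdnf, with the mouse as a block, was 0.35 ± 0.073 (standard error), with an adjusted p of 0.0339. The 95% interval of the difference ran from 0.20 to 0.51, which corresponds to a fold change of 1.14 to 1.43. Flipping the signs of the 6 differences in an exact permutation test (two-sided) gave p = 0.0312, which no design with 6 pairs can go below. Over the 12032 loci with a mean of at least 1 FPKM, 1.5% were called at an adjusted p under 0.05 (1.22% higher and 0.274% lower), and Bdnf ranked 146 by p. The call depended on the pairing, the filter and which mice were included. Without the mouse as a block the adjusted p from limma was 0.865, without the filter on low values it was 0.124, and with any single mouse but mouse 5 left out it was between 0.0644 and 0.146. Without mouse 5 the adjusted p from limma was 0.00968, and Bdnf stayed called. In bulk tissue, a change in the number of cells that make Bdnf and a change in RNA per cell cannot be told apart.

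**Figure D1:**
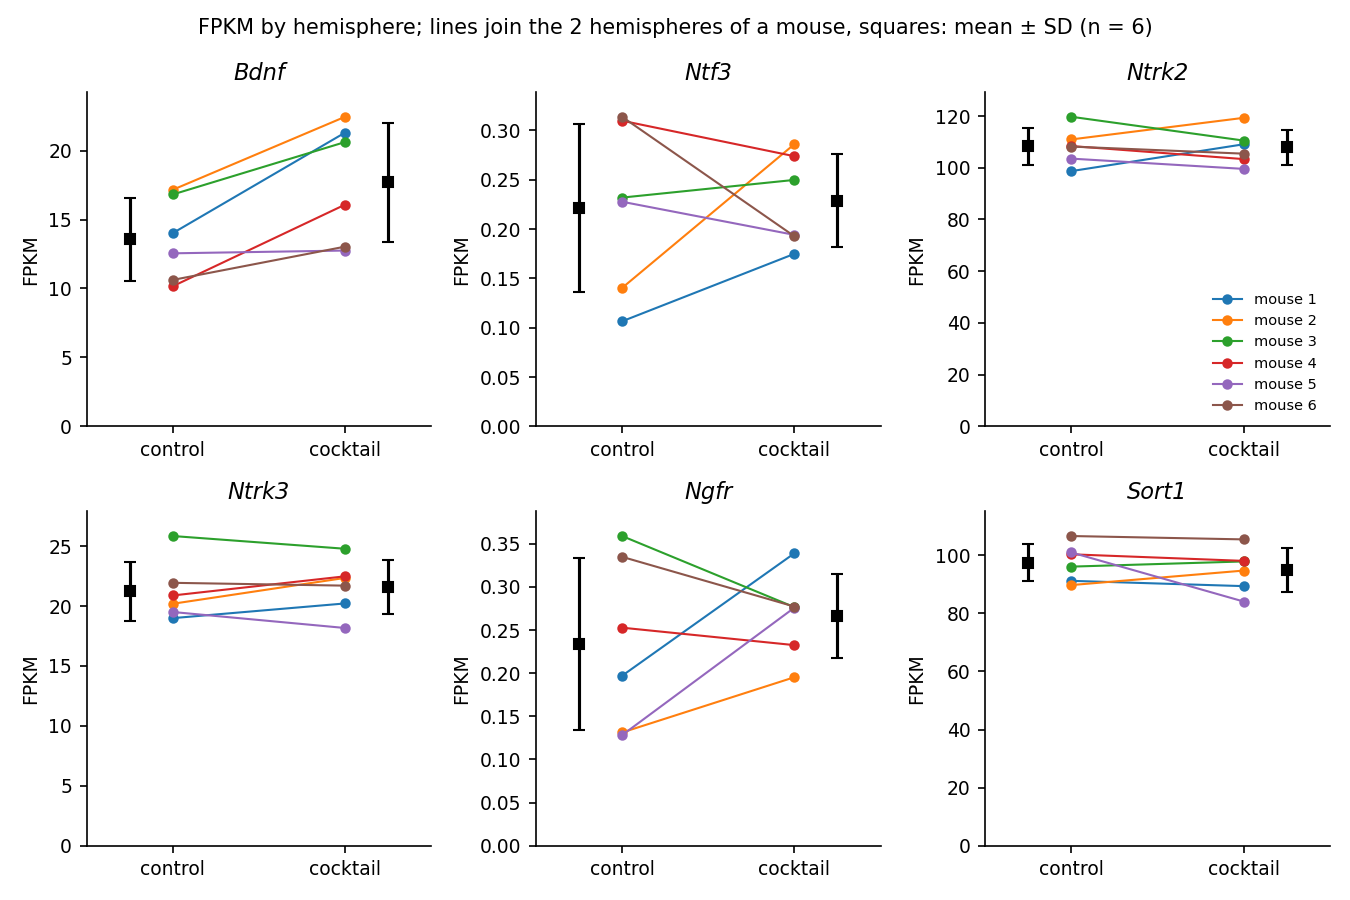
FPKM of each gene in the control and cocktail hemispheres (vertical axes from 0), with a line for each of the 6 mice and black squares for the mean ± SD (n = 6). All 6 lines rise for Bdnf, from 10.2 to 17.2 FPKM in control to 12.8 to 22.4 FPKM in the cocktail, whereas lines of the other genes go both ways.

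The ratio between mice within a group exceeded the ratio between the groups. The highest control library had 1.69 times the lowest, and the highest cocktail library had 1.76 times the lowest. In comparison, the corresponding ratios were 1.21 and 1.198 for Ntrk2 and 1.19 and 1.25 for Sort1. Mice 4, 5 and 6 had the 3 lowest Bdnf values in control and also the 3 lowest in the cocktail.

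Between 450.5 and 1577 reads lay behind each Bdnf value, a number recovered from the interval that Cufflinks gives with the FPKM. In RPM, the recovered reads scaled to the total of the library, control libraries of mice 1 to 6 had 53.6, 69.0, 67.5, 42.4, 50.0 and 42.5. The cocktail libraries had 90.1, 94.4, 85.8, 66.1, 54.2 and 54.2. On this scale, which does not weigh transcripts by length, the rise ranged from a ratio of 1.09 in mouse 5 to 1.68 in mouse 1. A fit of the recovered reads with voom and limma gave 0.45 ± 0.074 on the log2 scale (standard error, adjusted p = 0.00964), where 1.34% of loci were called.

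Ntf3 (chromosome 6, 126101412 to 126166744, minus strand), which encodes NT-3, was near the limit of detection. It had 0.107 to 0.314 FPKM (median 0.230) in control and 0.175 to 0.286 FPKM (median 0.222) with the cocktail, with 1.7 to 6.0 recovered reads per library. It was higher in the cocktail in 3 of 6 mice, and the groups overlapped throughout. The sign-flip permutation test, exact and two-sided, gave p = 0.844. At this depth a difference was not detectable, and Ntf3 was below the minimum of 1 FPKM for the fit across loci. Ntf5, encoding the ligand neurotrophin-4, had 0.107 ± 0.0586 FPKM in control and 0.0619 ± 0.0265 FPKM in the cocktail (SD, n = 6 each).

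Ntrk2 (chromosome 13, 58806569 to 59133970, plus strand), the receptor of BDNF, had the highest level of the 6 genes and ranked 520 of all loci by mean FPKM. Its values in control mice 1 to 6 were 98.7, 110.9, 119.7, 108.4, 103.5 and 108.2 FPKM. In the cocktail they were 109.1, 119.3, 110.5, 103.4, 99.6 and 105.5 FPKM. The cocktail value was higher in mice 1 and 2 and lower in the other 4, and the groups overlapped. The log2 fold change was -0.0047 (standard error 0.047, adjusted p = 0.991 from limma), with a 95% interval from -0.11 to 0.099, or a fold change of 0.928 to 1.07. In 8 of 12 libraries the Cufflinks status of Ntrk2 was not OK, so no read number is given. The FPKM of Ntrk2 in these libraries carries the same flag and was used as deposited.

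Ntrk3 (chromosome 7, 78192114 to 78577838, minus strand), the receptor of NT-3, had 19.0, 20.2, 25.9, 20.9, 19.5 and 21.9 FPKM in control mice 1 to 6. The cocktail hemispheres had 20.2, 22.4, 24.8, 22.5, 18.2 and 21.7 FPKM. The cocktail hemisphere was higher in 3 of 6 mice, and mouse 3 had the highest value in both groups. The log2 fold change was 0.026 (standard error 0.049, adjusted p = 0.940 from limma), with a 95% interval from -0.081 to 0.13. With voom on the recovered reads, 892 to 1752 per library, it was -0.0037.

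Ngfr (chromosome 11, 95568821 to 95587698, minus strand), encoding the p75 receptor, was present at 0.128 to 0.359 FPKM (median 0.225) in control and 0.195 to 0.339 FPKM (median 0.276) in the cocktail. Only 7 to 24 reads per library lay behind these values, and the groups overlapped. The exact permutation test of signs, two-sided, gave p = 0.438 with 3 of 6 mice higher, and the gene was below the minimum for the fit. Markers of cholinergic neurons, cells known to carry p75, were also below the minimum for the fit. Together, Chat, Slc5a7 and Slc18a3 summed to 0.331 to 0.716 FPKM in control and 0.274 to 0.847 FPKM in the cocktail. A link to the level of Ngfr was not tested.

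Sort1 (chromosome 3, 108284064 to 108361519, plus strand), encoding sortilin, which also sorts BDNF in the cell, had 91.2, 89.7, 96.1, 100.3, 101.0 and 106.6 FPKM in control mice 1 to 6. In the cocktail, the values were 89.4, 94.7, 97.9, 98.1, 84.1 and 105.5 FPKM. Mouse 5 had the largest difference, with the lower value in the cocktail, and values of the groups overlapped. The log2 fold change was -0.039 (standard error 0.050, adjusted p = 0.900 from limma), with a 95% interval from -0.15 to 0.069. Between 8355 and 15119 reads per library lay behind these values.

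**Figure D2:**
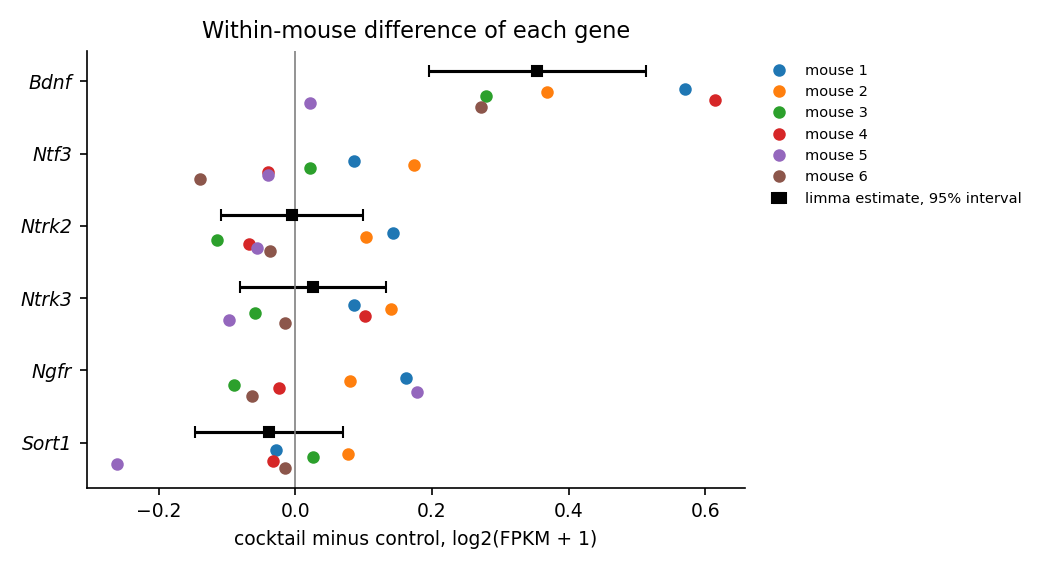
Difference between the cocktail and the control hemisphere of each mouse (colored points) on log2(FPKM + 1), with the limma estimate and its 95% interval (black) for the 4 genes that were tested. The interval lies above 0 for Bdnf (0.20 to 0.51) and spans 0 for Ntrk2, Ntrk3 and Sort1.

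Of the 4 genes that passed the filter, 1 was called higher and 0 were called lower, against 1.22% and 0.274% of all loci tested. A call for Bdnf and none for a receptor does not show that their changes differ, so the within-mouse changes were compared directly in 5 pairs of genes. The change of Bdnf exceeded that of Sort1 by 0.39 ± 0.18 on the log2 scale and that of Ntrk2 by 0.36 ± 0.20 (SD, n = 6 mice, 6 of 6 larger). For Ntrk3 the excess was 0.33 ± 0.15 and for Ntf3 0.34 ± 0.21, also in 6 of 6 mice. Each of these 4 comparisons gave p = 0.0312 by an exact permutation test of signs, two-sided, the smallest p possible, which was not adjusted for the 5 pairs. The excess over Ngfr was 0.31 ± 0.26 (5 of 6 mice, exact permutation p = 0.0625). Because 1 is added to each FPKM, changes of Ntf3 and Ngfr are compressed on this scale, and with 0.1 added the comparison with Ntf3 gave an excess of 0.31 with an exact permutation p of 0.156, and that with Ngfr 0.20 with 0.406.

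The order of the levels in control was Ntrk2, Sort1, Ntrk3, Bdnf, Ngfr and Ntf3. Ntrk2 was 1.11 times as high as Sort1, with overlapping ranges, although it was higher in 6 of 6 control libraries (exact sign-flip permutation p = 0.0312). This p covers the spread between libraries only, and not an error in the FPKM of either gene that all libraries share. Sort1 was 4.59 times as high as Ntrk3, Ntrk3 was 1.57 times as high as Bdnf, and Bdnf was 58.0 times as high as Ngfr, all with ranges that did not overlap. Ngfr and Ntf3 did not differ beyond their spread (ratio 1.05, higher in 3 of 6 libraries, exact sign-flip permutation p = 0.875).

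**Figure D3:**
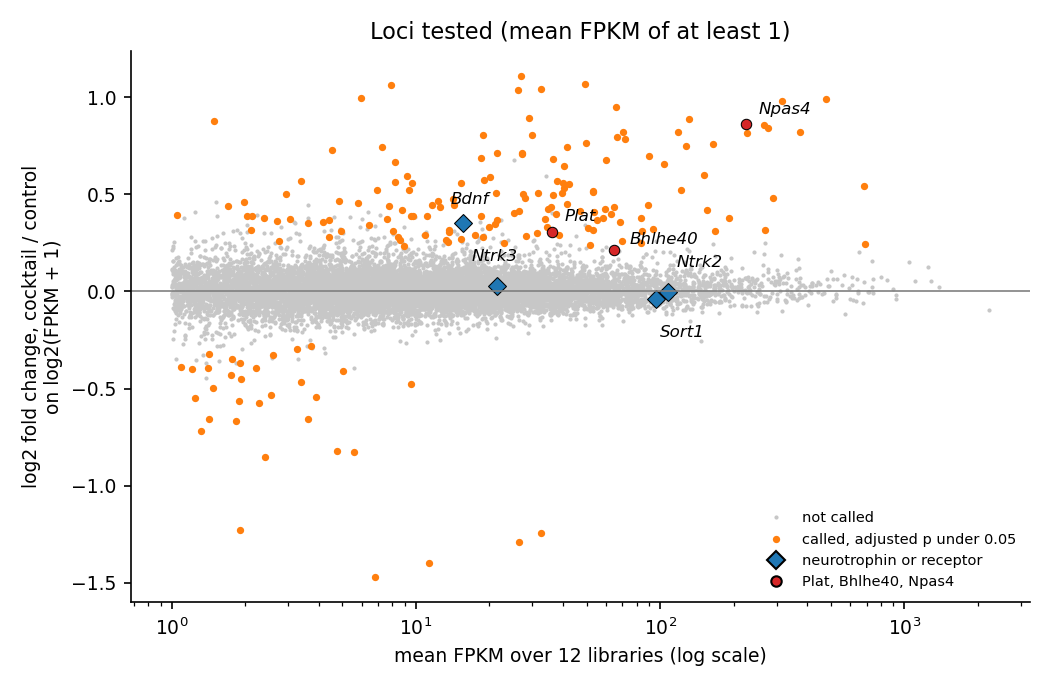
Log2 fold change on log2(FPKM + 1) against mean FPKM over 12 libraries (log scale) for the 12032 loci tested, with called loci in orange, Bdnf, Ntrk2, Ntrk3 and Sort1 as blue diamonds, and Plat, Bhlhe40 and Npas4 of other pathway lists as red circles. Bdnf lies at 0.35 among the called loci, the 3 receptor genes lie near 0, and Npas4 lies at 0.86.

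Genes around the neurotrophins were grouped by role in lists of 67 names, leaving aside the genes that respond to BDNF, and of these 58 loci were tested, 4 were called higher and 0 lower by limma, where 1.22% and 0.274% of all loci were called. With voom 3 were called, where 1.34% of all loci were. An unadjusted p under 0.05 was found for 7 of the 58 loci, against 8.05% of all loci tested. Among genes that cut and release proneurotrophins, 2 of 12 tested were called higher and 0 lower, with a median log2 fold change of 0.035 against 0.0076 over all loci tested. Plat encodes tissue plasminogen activator, which makes plasmin, a protease that cuts proBDNF outside the cell. Plat had 33.5, 34.7, 29.7, 33.1, 29.5 and 31.8 FPKM in control mice 1 to 6 and 42.1, 43.9, 36.4, 44.2, 39.8 and 33.6 FPKM in the cocktail. It was higher in all 6 mice, although the groups overlapped, and its log2 fold change was 0.31 (standard error 0.052, adjusted p = 0.00989 from limma). Without mouse 4 the adjusted p was 0.0624, and without the block 0.0590.

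Plg, encoding plasminogen itself, had 0.0178 ± 0.0113 FPKM in control and 0.0156 ± 0.0188 FPKM in the cocktail (SD, n = 6 each). Of 5 endothelial markers, genes of a cell type that makes tissue plasminogen activator, 0 were called by limma or voom and 1 had an unadjusted p under 0.05. Their log2 fold changes were 0.029 to 0.18, and they summed to 39.9 to 47.4 FPKM in control and 40.9 to 51.6 FPKM in the cocktail. Of 3 leptomeningeal fibroblast markers tested, 0 were called by limma or voom and 2 had an unadjusted p under 0.05, with a median log2 fold change of 0.23. Together with Lum, which was below the filter, the 4 listed markers summed to 8.21 to 13.6 FPKM in control and 10.99 to 15.25 FPKM in the cocktail. The part of either cell type in the change of Plat was not tested.

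Of 13 regulators of Bdnf transcription that were tested, 2 were called higher and 0 lower, with a median log2 fold change of -0.0012. Over all loci tested, 1.22% were called higher and 0.274% lower. Npas4, an activity-dependent transcription factor that acts on Bdnf promoters, had 131 to 180 FPKM in control and 265 to 309 FPKM in the cocktail. Its log2 fold change was 0.86 (standard error 0.064, adjusted p = 1.75e-05 from limma), and it was called under every alternative that was run. Bhlhe40, a repressor that binds E-boxes, had 50.1 to 68.1 FPKM in control and 61.3 to 77.4 FPKM in the cocktail, with overlap (log2 difference 0.21 ± 0.044, standard error, adjusted p = 0.0351 from limma). It was higher in 6 of 6 mice, but was not called without any single mouse other than mouse 1 (adjusted p 0.0644 to 0.197). The call was also lost without the block (adjusted p = 0.764 from limma), without the filter (0.0544), under median-of-ratios scaling (0.0612) and with voom (0.182). The other 11 regulators, among them Creb1, Crtc1 and Mef2c, did not pass the test. Of all 13, 4 had an unadjusted p under 0.05, against 8.05% of all loci tested. Besides the called genes these were Srf and Crtc1. Srf was higher in 6 of 6 mice (log2 fold change 0.18, adjusted p = 0.148 from limma). Crtc1 was higher in 1 of 6 (-0.11, adjusted p = 0.527 from limma).

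None of the 7 other ligands, receptors and sortilin relatives tested was called by limma (0 with an unadjusted p under 0.05, 0 with voom). Their log2 fold changes ran from -0.13 for Rtn4r to 0.018 for Sorcs2. The same was true of the 10 adaptors of the p75 receptor (0 called by limma or voom, 0 with an unadjusted p under 0.05), which ran from -0.12 to 0.15. Of 16 adaptors and proximal signalling genes of the Trk receptors, 0 were called by limma or voom and 1 had an unadjusted p under 0.05, with a range from -0.13 for Frs3 to 0.14 for Gab1. The median log2 fold changes of these lists were -0.039, -0.0026 and -0.021.

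Of 10 genes known to respond to BDNF in neurons, and also to activity without it, 6 were called higher and 0 lower by limma, and 6 by voom, with a median log2 fold change of 0.60. Over all loci, limma called 1.22% higher and 0.274% lower, and voom called 1.34%. This list was chosen with earlier results of these data known, so its count and median are a description and not a test. Arc had 270.5 ± 27.0 FPKM in control and 477.5 ± 42.0 FPKM in the cocktail, and Nptx2 had 80.1 ± 16.7 and 127 ± 28.3 FPKM (SD, n = 6 each). Dusp6, a phosphatase of the ERK pathway on which Trk receptors act, rose with a log2 difference of 0.82 (± 0.065, standard error, adjusted p = 2.92e-05 from limma). Egr1, Egr2 and Fos were the others called. Of the remaining genes, Vgf had a log2 fold change of 0.24 (adjusted p = 0.104 from limma), while Homer1, Npy and Cort lay between -0.029 and 0.11.

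**Figure D4:**
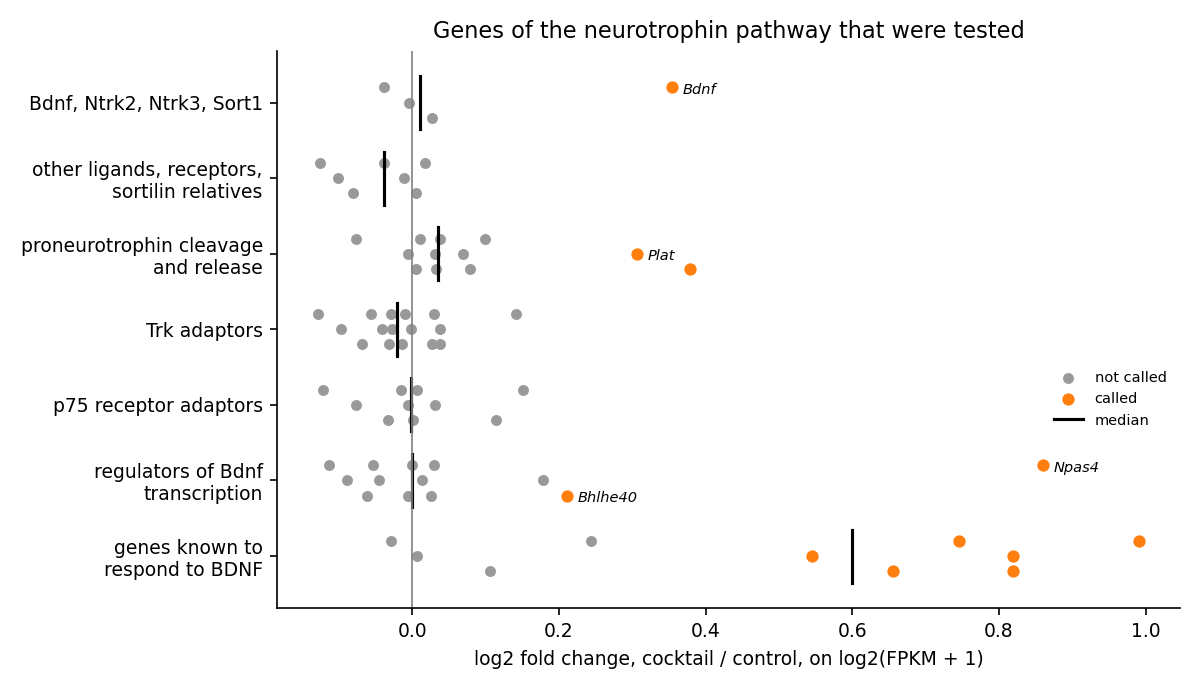
Log2 fold change on log2(FPKM + 1) of each tested gene by list, with called genes in orange and a black line at the median of each list. Medians lie between -0.039 and 0.035 for the other lists, in which Bdnf, Plat, Bhlhe40 and Npas4 are labelled among the called genes, and at 0.60 for genes known to respond to BDNF, the last row.

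Across the 12 libraries, the 5 loci whose log2(FPKM + 1) was most like that of Bdnf, among 8521 with a mean of at least 5 FPKM, were Egr3, Lrrc8c, Hmgcs1, Nptx2 and Ccrn4l (Pearson correlation 0.92 each, 12 libraries). The libraries are 6 pairs and share the treatment, so this likeness is a description. The 5 loci are the highest of 8521, whose median correlation with Bdnf was -0.082, and 1% of these loci lay above 0.777. Egr3, an activity-regulated transcription factor, had 159, 161, 178, 133, 125 and 139.8 FPKM in control mice 1 to 6 and 202.5, 215, 202, 184, 154 and 155 FPKM in the cocktail. As for Bdnf, the 3 lowest cocktail libraries were those of mice 4, 5 and 6. Of the 5 loci, Egr3 and Nptx2 were called higher by limma (log2 fold changes of 0.31 and 0.66), whereas Lrrc8c, Hmgcs1 and Ccrn4l were not (0.15, 0.13 and 0.19). For Ntrk2 the most similar loci were Trim9, Nrn1 and Col4a1 (0.93 each), for Ntrk3 Mical2, Cap2 and Tsnax (0.89, 0.88 and 0.87), and for Sort1 Atp2b3, Srcap and Lrrc4 (0.96, 0.95 and 0.93). Among the 4 genes themselves, Ntrk2 and Ntrk3 had the highest correlation (0.72), and Bdnf had 0.52 with Ntrk2, 0.37 with Ntrk3 and -0.40 with Sort1.

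The libraries held 10600193 to 19768184 recovered reads in control and 13539422 to 17506709 with the cocktail. Of markers for cortex, Slc17a7, the vesicular glutamate transporter of cortical excitatory neurons, was at 689 ± 38.0 FPKM in control and 659.5 ± 23.7 FPKM in the cocktail (SD, n = 6 each). Of 51 markers of cell types and brain regions tested, 0 were called by limma or voom and 4 had an unadjusted p under 0.05, against 8.05% of all loci tested. Markers of dentate gyrus, a known site of Ntf3 expression, summed to 1.98 to 5.33 FPKM in control and 2.50 to 5.02 FPKM in the cocktail. Astrocyte markers, of cells known to carry truncated TrkB, summed to 445 to 593 FPKM and 537 to 600 FPKM, with 0 of 6 called by limma or voom and 0 with an unadjusted p under 0.05.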

How the data were processed

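Poly-A RNA of 6 control and 6 cocktail hemispheres was sequenced by the authors in 1 lane as single reads from a directional kit. Reads on ribosomal RNA were removed with BWA 0.6.1, and the rest were placed on mm10 with TopHat 1.4.1 (1 placement per read). FPKM per RefSeq locus was estimated by the authors with Cufflinks 1.3.0, with bias correction, and deposited with an interval and a status. The strand setting of Cufflinks is not given in the sources used here. In GENCODE M21 an antisense gene, Gm45346, shares 896 exonic bases with Bdnf, and Gm12523 shares 338 with Sort1. A further table with the authors' own comparison (fold change, standard error, p-value and group means) was not used here.

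Groups and mouse numbers were taken from the labels. limma 3.58.1 (R 4.3.3) was fitted to log2(FPKM + 1) of all loci whose mean reached 1 FPKM, with a term for the mouse and a variance trend, and p was adjusted over these loci by Benjamini-Hochberg (threshold 0.05). Every adjusted p is from this fit unless voom is named. A fold change on this scale understates that of genes with low FPKM. For single genes, the signs of the differences within mice were also permuted exactly, two-sided (scipy 1.17.1). Deviations from the group means correlated at 0.216 to 0.407 (median 0.337) in the 6 pairs of hemispheres from the same mouse. In 30 pairs from different mice the correlation ran from -0.420 to 0.445 (median -0.071), so the ranges overlapped. The pairing itself was taken from the mouse numbers of the labels. No library was a copy of another in its group (chi-square per locus at least 3.16, where 1 is sampling noise). The reads behind a value were recovered from the interval, which is 2 Poisson standard deviations wide on each side. Of 36158 values under 20 reads, 83.2% were whole to within 0.05. For genes with several transcripts the number is approximate, and it covers counting error only. The fit was tested on simulated data. The labels give 1 sample per hemisphere and 6 animals. The sign-flip p-values rest only on the differences of the gene in these mice. The limma standard errors and p-values are moderated, that is, the variance of a gene is drawn toward that of other loci of similar level.

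All 6 genes, the called genes of each pathway list (counts include genes not reported here) and the loci most correlated with a member (5 for Bdnf, 3 for the others) are named. A few genes that were not called are also named to give a level, the end of a range or a low unadjusted p, and were chosen after their values were seen. The members and lists were chosen with earlier results of these data known. Ntf4, Drd1a and Hbb-bt matched no locus. Alternatives were no block, another pseudocount or filter, median-of-ratios scaling, loci with an OK status, voom, and each mouse left out. Python 3.11.15 with matplotlib 3.10.9 drew the plots.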

Additional observations from a re-analysis of the deposited data

Results flagged for a closer look

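Sort1 in mouse 5 stood apart, with a log2 difference between hemispheres of -0.26, whereas the remaining mice spanned -0.033 to 0.077, so that the gap made up 0.676 of the range. It was the single such case among 18 sets of 6 values, where chance gives about 0.9. Bdnf (0.021) and Ntrk3 (-0.097) also had their lowest within-mouse difference in mouse 5. The cause was not tested.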

How the results depend on the processing

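The number of loci called was 180 and stayed between 104 (without mouse 4) and 181 (without mouse 6) with each mouse left out, and it was 88 with no replicate block. Bdnf was higher in the cocktail in every alternative, with a log2 fold change of 0.30 to 0.42 when 1 mouse was left out, 0.35 with no replicate block and 0.35 with no filter, but the call was lost in those last 2 and without mouse 1, 2, 3, 4 or 6. Without the filter, more loci at low FPKM enter the fit. Leaving out 1 mouse leaves fewer samples, and the cause was not tested further. Values of the receptors near 0 changed sign in places: Ntrk3 was -0.0037 with voom, Ntrk2 lay between -0.034 and 0.017 and Sort1 between -0.062 and 0.0053 with 1 mouse left out, and Ntrk3 lay between 0.0035 and 0.051, with no call in any fit. With no filter, Ntf3 (0.010) and Ngfr (0.040) could be fitted and were not called. With 5 mice the sign-flip test cannot go below 0.0625, so no comparison of Bdnf with another gene could pass 0.05. The excess of Bdnf was then 0.28 to 0.40 over Ntf3, 0.29 to 0.42 over Ntrk2, 0.29 to 0.37 over Ntrk3, 0.25 to 0.41 over Ngfr and 0.34 to 0.42 over Sort1, and with a pseudocount of 0.1 it was 0.31 over Ntf3. Depth limits Ntf3 and Ngfr, and a status other than OK leaves Ntrk2 without a value for voom or for loci with an OK status. The block changed no call of Npas4, Arc, Fos, Egr1, Egr2 or Dusp6, whereas Nptx2 had an adjusted p of 0.0519 from limma without it.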
